A study of Mus musculus with 12 samples.

Results

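Chemokine ligands are small secreted or membrane-anchored proteins that guide the movement of cells carrying the matching receptor. The levels of 10 ligand genes, the members, were followed in immortalised mouse striatal cells that serve as a cell model of Huntington's disease: Cxcl10, Ccl5, Ccl2, Ccl7, Cxcl1, Cxcl5, Cxcl12, Cx3cl1, Ccl20 and Cxcl16. They were found by gene symbol, which gave 13 of the 44505 probes on the array and 10 of 17056 genes with a symbol. A probe counted as detected on an array at a detection p under 0.01, and was tested where it was detected on at least 2 of the 12 arrays. Of the 13 probes 10 were tested, so that 9 of the 10 genes stood among the 8487 genes tested. The probe for Ccl20, the third probe for Cxcl12 and the second probe for Cxcl16 were detected on 0 of 12 arrays.

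The study measured RNA on 12 Illumina mouse expression arrays in 6 groups of 2. The cells came from the striatum of homozygous knock-in mice with 7 (Hdh7/7) or 109 (Hdh109/109) CAG repeats in the Hdh allele, which encodes huntingtin. Cells of each line were left untransfected or given an empty vector or DNRest; the labels give the construct's name alone, and in the study it is a dominant-negative form of the repressor REST. All 6 groups grew at 33 °C in DMEM with 10% fetal calf serum under 5% CO2, and a treatment field calls the cells not treated. There is 1 line per genotype, so the repeat and whatever else separates these 2 lines cannot be told apart. Nothing in the labels says that the arrays of a group came from separate cultures, so p-values rest on a spread between arrays that may be technical alone. The source name of 6 of the 12 arrays gives the other genotype, and groups follow the titles, with which the genotype field agrees on all 12. Across probes, the correlation between arrays was 0.959 to 0.993 within a titled line and 0.887 to 0.916 between titled lines.

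Values are normalized log2 signals after background correction, and compare arrays for a probe, not one probe with another. Arrays detected 10295 to 14370 probes. Replicate 2 of the empty vector group in Hdh7/7 cells and replicate 2 of the untransfected group in Hdh109/109 cells had median raw signals of 161.1 and 156.1, against 70.15 to 103.7 on the other arrays, and the members' values without the pair are given where they changed a call or moved a called value most. The probe for Htt, which carries the repeat, had a log2 level of 6.86 ± 0.25 (SD, n = 2) in untransfected Hdh7/7 cells and was undetected on all Hdh109/109 arrays. Rest was undetected on all 12 arrays, so its probe gave no measure of the construct.

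Chemokines are named by the spacing of their conserved cysteines, as CXC, CC and CX3C ligands, and act through receptors coupled to G proteins. Inflammatory ligands such as Cxcl10 and Ccl2 are induced through interferon-activated STAT and IRF factors and through NF-κB, while Cxcl12 is made constitutively in many tissues. In the brain, Cx3cl1 is known as a ligand by which neurons signal to microglia, and Cxcl12 guides migrating neural cells. By the RefSeq gene table of GRCm38.p6, Ccl2 and Ccl7 are neighbours with 0 coding genes between them on chromosome 11, which also holds Ccl5 and Cxcl16. Cxcl1, Cxcl5 and Cxcl10 lie on chromosome 5, with 4 coding genes between Cxcl5 and Cxcl1 and 19 between Cxcl1 and Cxcl10.

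Promoter windows of 250 bases before to 50 bases after the annotated start were available from RefSeq (GRCm38.p6) for 5 of the 10 members: Cxcl10, Cxcl1, Cxcl12, Cx3cl1 and Ccl20. The windows were searched on both strands for the core of the interferon-stimulated response element (ISRE; GAAA, any 2 bases, then GAAA) and for the κB consensus, the sequence named for NF-κB. The ISRE core occurred in 3.43% of all 32817 promoter windows and the κB consensus in 4.5%. Cxcl10 was the member with an ISRE core, which began 213 bases before the start, and it also held κB matches that began 159 and 103 bases before the start. Cxcl1 held κB matches on both strands that overlap each other, beginning 71 and 70 bases before the start, and Ccl20 held 1 that began 80 bases before the start. Neither set of letters occurred in the windows of Cxcl12 and Cx3cl1. The 250 bases before the start are shown 5′ to 3′ for Cxcl10, which moved most, for Cxcl1 and Ccl20, which hold a κB match but did not rise with the empty vector by the test or were undetected, and for Cx3cl1, which moved against the others between the lines. Capitals mark the matches; a match describes the letters and is not a measured binding site. The windows are chr5:92348890-92349139 on the minus strand, chr5:90890995-90891244, chr1:83116516-83116765 and chr8:94771930-94772179 on the plus strand, in that order.
Cxcl10: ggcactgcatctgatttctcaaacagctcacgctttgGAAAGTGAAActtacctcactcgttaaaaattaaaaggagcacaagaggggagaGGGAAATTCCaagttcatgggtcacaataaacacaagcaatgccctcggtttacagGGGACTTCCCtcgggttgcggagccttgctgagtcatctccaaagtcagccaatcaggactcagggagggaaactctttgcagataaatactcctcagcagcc
Cxcl1: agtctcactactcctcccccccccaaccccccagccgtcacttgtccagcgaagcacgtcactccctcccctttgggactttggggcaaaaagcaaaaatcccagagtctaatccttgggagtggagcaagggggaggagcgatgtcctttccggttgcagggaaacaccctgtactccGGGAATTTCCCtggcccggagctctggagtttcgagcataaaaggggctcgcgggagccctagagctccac
Ccl20: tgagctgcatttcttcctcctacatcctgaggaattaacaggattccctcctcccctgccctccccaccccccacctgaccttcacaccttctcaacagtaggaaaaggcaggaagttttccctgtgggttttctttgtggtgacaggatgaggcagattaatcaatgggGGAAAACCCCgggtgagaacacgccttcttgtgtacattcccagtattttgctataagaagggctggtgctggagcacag
Cx3cl1: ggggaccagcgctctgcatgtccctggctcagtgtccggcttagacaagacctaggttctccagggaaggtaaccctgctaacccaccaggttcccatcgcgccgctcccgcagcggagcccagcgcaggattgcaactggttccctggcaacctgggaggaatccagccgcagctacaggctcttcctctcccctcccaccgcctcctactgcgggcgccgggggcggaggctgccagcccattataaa

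The untransfected lines were compared first. Of the 9 members tested 6 were higher in Hdh109/109 than in Hdh7/7 cells and 1, Cx3cl1, was lower (limma, Benjamini-Hochberg adjusted p under 0.05 over all probes). Ccl2, Cxcl5 and Cxcl16 were detected on Hdh109/109 arrays alone, and Cxcl10 on 1 Hdh7/7 array. These genes were thus tested only through the line in which they read higher, and could hardly be called lower. Among all 8487 genes tested 18.1% were called higher and 20.9% lower, so calls in either direction were common between these lines. The median log2 difference of the 9 members was 1.65, and that of all genes was -0.01. The members were chosen with earlier results of these data known. Here and below, their counts and medians set beside all genes are therefore descriptions and no test of the set. Folds written as "at least" are lower bounds for probes undetected on both arrays of 1 group, where each such array counted at the lowest signal detected on it or at the probe's own signal if that was higher.

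Cxcl10, an interferon-inducible ligand of the receptor Cxcr3, had log2 levels of 5.08 and 5.27 in untransfected Hdh7/7 cells, both undetected, against 7.13 and 7.21 in the untransfected Hdh109/109 line. It was at least 2.47-fold higher in the Hdh109/109 line (adjusted p = 0.000548, limma), and the groups did not overlap. Ccl5, also known as RANTES and an attractant of T cells and monocytes, read 4.67 and 5.03, both undetected, against 7.78 and 7.94. The difference was at least 3.99-fold (adjusted p = 5.74e-06, limma). The CC ligands that attract monocytes showed the same order. Ccl2 was undetected at 5.47 and 5.48 in Hdh7/7 cells and reached 7.43 and 7.77 in Hdh109/109 cells, at least 3.34-fold higher (adjusted p = 5.1e-05, limma). Its neighbour Ccl7 was detected in both lines, at 6.88 and 7.28 against 8.94 and 9.41, a log2 difference of 2.09 ± 0.39 (SE; adjusted p = 0.00225, limma). For these 4 genes every Hdh109/109 array, in any transfection state, was above every Hdh7/7 array.

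The ligands of the neutrophil receptor Cxcr2 differed from each other. Cxcl5 was undetected on all 6 Hdh7/7 arrays, at log2 levels of 4.57 to 4.71, and was detected on 5 of the 6 Hdh109/109 arrays, at 5.68 to 6.56. In untransfected cells it was at least 1.31-fold higher in Hdh109/109 (adjusted p = 2.87e-05, limma). Cxcl1 was bright in both untransfected lines, with 9.91 and 10.02 in Hdh7/7 against 9.89 and 9.99 in Hdh109/109. Its values overlapped, and the log2 difference was -0.03 (95% interval -0.64 to 0.59; adjusted p = 0.955, limma).

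Cxcl12, the constitutive ligand of Cxcr4, was read by 2 tested probes that disagreed. The brighter probe gave 10.04 and 10.01 in untransfected Hdh7/7 cells, against 11.17 and 11.14 for Hdh109/109, a log2 difference of 1.13 ± 0.12 (SE; adjusted p = 6.79e-05, limma). The second probe gave 7.91 and 8.18 against 7.91 and 8.27, which overlapped, with a difference of 0.04 (95% interval -0.31 to 0.4; adjusted p = 0.858). Its difference was 0.36 with the empty vector (adjusted p = 0.0897) and 0.29 with DNRest (adjusted p = 0.176), where the brighter probe gave 1.08 and 1.2. The result for Cxcl12 therefore holds for the brighter probe alone.

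Cx3cl1, or fractalkine, is made as a transmembrane protein whose shed form attracts cells carrying Cx3cr1. It was the member that fell between the lines. Untransfected Hdh7/7 cells read 11.58 and 11.35 and untransfected Hdh109/109 cells 7.79 and 7.98, a log2 difference of -3.58 ± 0.14 (SE), or 12-fold lower in Hdh109/109 cells (adjusted p = 5.61e-08, limma). All 6 Hdh109/109 arrays lay below all 6 Hdh7/7 arrays. Cxcl16, the other transmembrane ligand, binds Cxcr6. Its probe was undetected on all Hdh7/7 arrays, at 5.18 and 5.14 in untransfected cells, and read 5.96 (detected) and 5.52 (undetected) in untransfected Hdh109/109 cells. The difference of 0.58 did not pass the test (adjusted p = 0.0781, limma), and without the pair of arrays with high background it was 0.8 with adjusted p = 0.0354. Ccl20, the ligand of Ccr6, stayed at 4.78 to 5.25 on all 12 arrays and was undetected throughout.

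**Figure D1:**
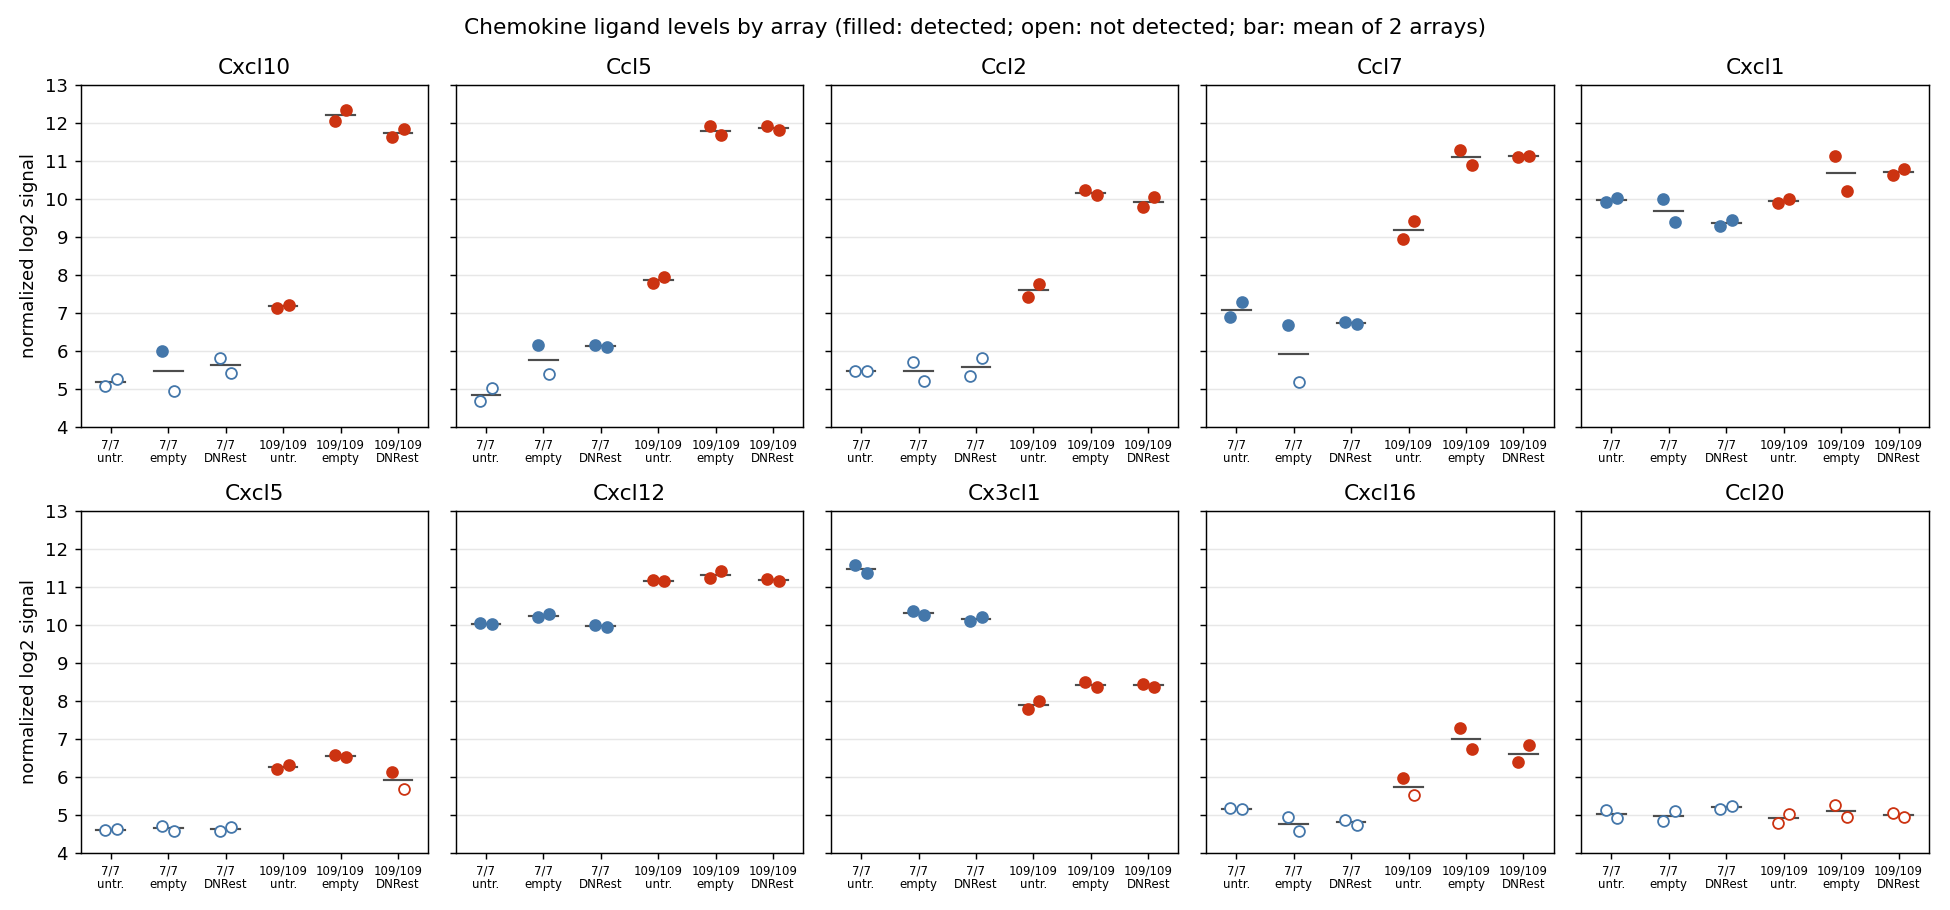
Normalized log2 signal of the representative probe of each member on the 12 arrays, by line and transfection state; filled points were detected, open points were not, and bars are means of 2 arrays. Cxcl10 reached 12.05 and 12.35 in Hdh109/109 cells with the empty vector, Cx3cl1 was highest in untransfected Hdh7/7 cells at 11.58 and 11.35, and Ccl20 was undetected on all arrays.

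The gap between the lines was tested again in transfected cells. With the empty vector 8 of 9 members were higher in Hdh109/109 cells and Cx3cl1 was lower, where 23.9% of all genes were called higher and 22.4% lower. With DNRest 8 were again higher and Cx3cl1 lower, where 19.9% were called higher and 19.3% lower. These backgrounds depended on the scaling: when arrays were scaled to a common median instead of quantile normalized, 3642 genes were higher and 378 lower with the empty vector, 1415 higher and 543 lower with DNRest, and the members' calls numbered 8 higher and 1 lower in both. The members called higher in both states include Cxcl10, Ccl2, Cxcl5 and Cxcl16, which were tested only through Hdh109/109 arrays. With detection required on all 12 arrays, 2 members were called higher and 1 lower in each state. The log2 difference of Cxcl10 was 6.72 ± 0.29 (SE) with the empty vector, a fold of 106 against a group in which 1 of 2 arrays detected it. With DNRest Cxcl10 was at least 50.6-fold higher. Both bounds and folds rest on Hdh7/7 signals at or near background. Ccl5 differed by 6.03 ± 0.23 with the empty vector and 5.74 ± 0.23 with DNRest, and Ccl7 by 5.16 ± 0.39 and 4.39 ± 0.39. Without the high-background pair, which holds an Hdh7/7 array with the empty vector on which Ccl7 was undetected, the empty vector differences were 4.42 for Ccl7, 6.19 for Cxcl10, 5.65 for Ccl5 and 4.46 for Ccl2. Ccl2 was higher by at least 14-fold in the first state and 14.5-fold in the second. For these 4 genes the adjusted p in both states was 1.76e-05 or smaller (limma).

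Cxcl1 and Cxcl16, which did not pass in untransfected cells, passed in transfected ones. Cxcl1 differed by 0.98 ± 0.28 (SE) with the empty vector (adjusted p = 0.0168, limma) and by 1.36 ± 0.28 with DNRest (adjusted p = 0.00385). The first of these calls was lost without replicate 2 of the empty vector group in Hdh7/7 (0.68) or without replicate 1 of that group in Hdh109/109 (0.53). It was also lost without the high-background pair (0.68) and with the compared groups alone (0.98, adjusted p = 0.107, limma). Cxcl16 was at least 1.55-fold and at least 1.45-fold higher in Hdh109/109 cells in the same states. Cxcl5 was at least 1.14-fold higher with the empty vector. With DNRest Cxcl5 was called higher (adjusted p = 0.000151, limma). It was detected there on 1 of 2 Hdh109/109 arrays and 0 of 2 Hdh7/7 arrays, so no size is given. The gap for Cx3cl1 was smaller than in untransfected cells, at -1.88 ± 0.14 and -1.74 ± 0.14.

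**Figure D2:**
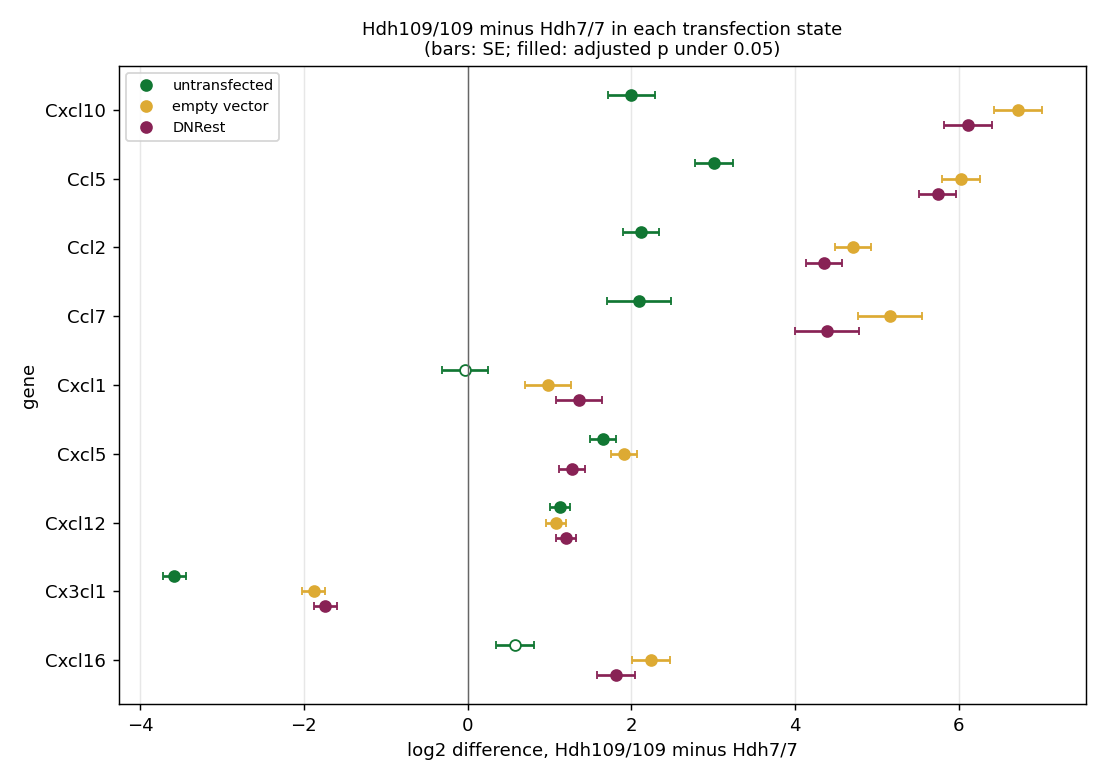
Log2 difference between the lines (Hdh109/109 minus Hdh7/7) for the 9 members tested, in untransfected cells and with the empty vector or DNRest; bars are SE and filled points passed an adjusted p of 0.05. Measured means are plotted, undetected signals included; Cxcl10 lay at 2 in untransfected cells and at 6.72 and 6.11 in transfected cells, while Cx3cl1 was below 0 in all 3 states.

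Order and separation of the 6 groups differed by gene. For Cxcl10 the order from high to low was empty vector, DNRest and untransfected in Hdh109/109 cells, each separated from the next, and then the 3 Hdh7/7 groups, in which neighbours overlapped. Ccl2 followed the same order in Hdh109/109 cells. For Ccl5 and Ccl7 the DNRest and empty vector groups of Hdh109/109 cells overlapped, and both lay above the untransfected group. Cx3cl1 ran the other way, from untransfected through empty vector to DNRest in Hdh7/7 cells, followed by the transfected and then the untransfected Hdh109/109 groups. Groups here are pairs of arrays, so separation describes these arrays.

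The empty vector was then set against no transfection within each line. In Hdh109/109 cells 5 of 9 members rose, Cxcl10, Ccl5, Ccl2, Ccl7 and Cxcl16, and 0 fell, where 2.43% of all genes tested were called higher. Over all genes 206 were called higher and 79 lower, or 177 and 17 with median scaling, under which the members' count stayed at 5 and 0. The median log2 difference of the members was 1.26, and that of all genes was 0.01. In bulk RNA, more cells making a transcript and more transcript per cell cannot be told apart. Transfection differs from the untransfected state by the reagent, the procedure and the plasmid together, which cannot be told apart here.

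Cxcl10 rose from 7.13 and 7.21 to 12.05 and 12.35, with raw signals of 241.9 and 309.8 against 4728 and 5796. The log2 difference was 5.03 ± 0.29 (SE), or 32.6-fold (adjusted p = 1.19e-05, limma). Ccl5 rose from 7.78 and 7.94 to 11.91 and 11.69, by 3.94 ± 0.23 or 15.4-fold (adjusted p = 1.19e-05). Both genes left a wide gap between untransfected and transfected Hdh109/109 arrays. Ccl2 rose from 7.43 and 7.77 to 10.24 and 10.09, a 5.91-fold change (2.56 ± 0.22, adjusted p = 0.000126). These 3 calls held under every alternative that tested the genes, including the fit without the pair of arrays with high background, where the differences were 5.07, 4.02 and 2.73.

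Ccl7 and Cxcl16 rose by less and their calls were less stable. Ccl7 went from 8.94 and 9.41 to 11.29 and 10.9, by 1.92 ± 0.39 (SE; adjusted p = 0.03, limma). Leaving out any 1 of the 4 arrays of untransfected and empty vector Hdh109/109 cells raised its adjusted p to 0.0783 to 0.17, at differences of 1.68 to 2.16. Without the high-background pair the adjusted p of Ccl7 was 0.000611. Cxcl16 went from 5.96 and 5.52 to 7.27 and 6.73, by 1.26 ± 0.23 (adjusted p = 0.0198). Its call was lost without the high-background pair (1.04), without replicate 2 of the untransfected group in Hdh109/109 (1.04) and without replicate 1 of the empty vector group (0.99). With no filter on dim probes the calls of both genes were lost (adjusted p = 0.086 for Ccl7 and 0.0502 for Cxcl16, limma).

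The other 4 members tested did not pass in Hdh109/109 cells. Cxcl1 read 9.89 and 9.99 untransfected and 11.13 and 10.22 with the empty vector, where the 2 arrays lay far apart (difference 0.74, 95% interval 0.12 to 1.36, adjusted p = 0.19, limma). Cx3cl1 read 7.79 and 7.98 against 8.5 and 8.35 (0.54, 95% interval 0.23 to 0.85, adjusted p = 0.0715). The groups of both genes did not overlap. Cxcl5 differed by 0.3 (adjusted p = 0.334) and the brighter Cxcl12 probe by 0.16 (adjusted p = 0.521).

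In Hdh7/7 cells 1 member rose with the empty vector and 1 fell, where 6.63% of all genes were called higher and 11.3% lower. With median scaling 26 genes were called higher and 2012 lower, and the median of all genes was -0.5 on the log2 scale. Cx3cl1 fell from 11.58 and 11.35 to 10.36 and 10.25, a log2 difference of -1.16 ± 0.14 (SE; adjusted p = 0.00112, limma), and the groups did not overlap. With the compared groups alone its adjusted p was 0.077. Ccl5 read 4.67 and 5.03, both undetected, against 6.15 (detected) and 5.39 (undetected). The difference of 0.91 ± 0.23 (adjusted p = 0.025, limma) lay near background. The call was lost without either untransfected Hdh7/7 array (0.73 and 1.09) and without replicate 1 of the empty vector group (0.53). It was also lost with no filter on dim probes (adjusted p = 0.0589) and with the compared groups alone (adjusted p = 0.173). Without the high-background pair the difference was 1.29 and passed.

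The remaining members did not pass in Hdh7/7 cells. Cxcl10 read 5.08 and 5.27 against 6.01 and 4.94, which overlapped (adjusted p = 0.51, limma), and it was detected on 1 of these 4 arrays. Without replicate 2 of the empty vector group, the high-background array, its difference of 0.3 became 0.84 and was called. That fit leaves 1 array with the empty vector, on which Cxcl10 was detected. Ccl2 was undetected on all 4 arrays. Ccl7 read 6.88 and 7.28 against 6.67 and 5.19, the last on the high-background array where it was undetected, and the difference of -1.15 became -0.41 without the pair. Without replicate 1 of the empty vector group, which leaves that array alone, the difference for Ccl7 was -1.89 and passed. With all arrays it passed under median scaling (-1.33, adjusted p = 0.000709, limma), where the median of all genes was -0.5. It also passed without background correction (-0.63, adjusted p = 0.0448).

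The difference between the lines in the response to the empty vector was tested directly. Of 9 members 6 were called, all with the more positive response in Hdh109/109 cells, where 8.95% of all genes were called in that direction (760 against 429 the other way, or 1507 and 21 with median scaling). The difference in response was 4.73 ± 0.42 (SE) on the log2 scale for Cxcl10 (95% interval 3.8 to 5.65; adjusted p = 0.000214, limma). It was 3.03 ± 0.32 for Ccl5, 3.07 ± 0.55 for Ccl7, 2.59 ± 0.31 for Ccl2, 1.7 ± 0.19 for Cx3cl1 and 1.66 ± 0.33 for Cxcl16. The value for Cx3cl1 joins a fall in Hdh7/7 cells and a change of 0.54 in Hdh109/109 cells that did not pass. Cxcl1 (1.01, adjusted p = 0.12), Cxcl5 (0.26, adjusted p = 0.445) and Cxcl12 (-0.06, adjusted p = 0.852) did not pass. Median scaling moved the median of all genes in this comparison from 0.08 to 0.67, and all 6 were called under it. Of the 4 Hdh7/7 arrays in this comparison Cxcl10 and Ccl5 were detected on 1, and Ccl2 and Cxcl16 on 0, so their differences rest in part on undetected signals. Without the high-background pair the differences were 4.23 for Cxcl10 and 2.57 for Ccl7, and the call for Cxcl16 was lost (1.25, adjusted p = 0.0737), as it was without replicate 1 of the untransfected Hdh7/7 group (1.64, adjusted p = 0.0542).

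**Figure D3:**
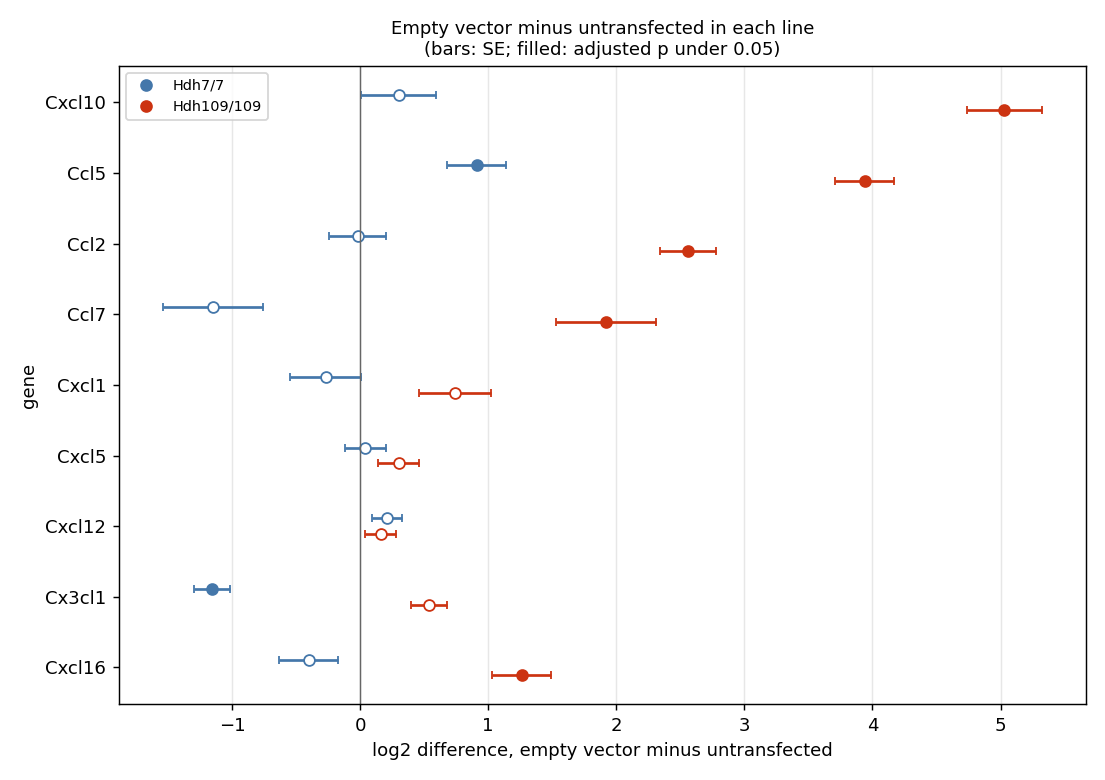
Log2 difference between empty vector and untransfected cells in each line for the 9 members tested; bars are SE and filled points passed an adjusted p of 0.05. In Hdh109/109 cells Cxcl10 rose by 5.03 and Ccl5 by 3.94, while in Hdh7/7 cells Cx3cl1 fell by 1.16.

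DNRest was compared with the empty vector, its control, in each line. In Hdh109/109 cells 0 of 9 members were called by limma, where 0.189% of all genes were called (15 higher and 1 lower, or 11 and 33 with median scaling), and 1 member had an unadjusted p under 0.05. That gene was Cxcl5, which read 6.12 and 5.68 with DNRest, against 6.56 and 6.53 in its control. Its groups did not overlap, and the difference was -0.64 (95% interval -0.99 to -0.3; unadjusted p = 0.00208, adjusted p = 0.318). Cxcl10 read 11.62 and 11.83 with DNRest against 12.05 and 12.35, a difference of -0.47 (95% interval -1.12 to 0.19; adjusted p = 0.547). With DNRest Ccl5 read 11.91 and 11.82 against 11.91 and 11.69 in the control, and Ccl7 11.11 and 11.14 against 11.29 and 10.9, both with overlapping values. The intervals of Ccl5 (-0.44 to 0.58) and Ccl7 (-0.84 to 0.9) give the sizes of change that these arrays leave possible.

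In Hdh7/7 cells 0 of 9 members were called between DNRest and the empty vector, where 0.118% of all genes were called, and 0 members had an unadjusted p under 0.05. The nearest were Cxcl12, with a difference of -0.26 (unadjusted p = 0.0581), and Ccl7, with 0.81 (unadjusted p = 0.0647; limma, adjusted p = 0.712 and 0.724). Without replicate 1 of the empty vector group, which leaves the high-background array alone, 2 members were called, Ccl7 (1.55, adjusted p = 0.0066) and Ccl5 (0.75, adjusted p = 0.044), and 515 of all genes were called against 10. The difference between the lines in this response was called by limma for 0 of 9 members, with 1, Cxcl5, at an unadjusted p under 0.05 (-0.63, adjusted p = 0.561). Of all genes 0% were called, with 578 at an unadjusted p under 0.05. Without replicate 1 of the empty vector group in Hdh7/7, Ccl7 (-1.52, adjusted p = 0.0254) and Cxcl10 (-1.15, adjusted p = 0.0413) were called, among 359 genes.

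Genes around the chemokines were read from lists chosen with earlier results of these data known. Of 28 other chemokine ligands 26 had a probe and 4 were tested. In untransfected cells Ppbp, a platelet CXC ligand, had a level at least 5.24-fold above Hdh7/7 in the Hdh109/109 line, where Ccl17, a ligand of Ccr4, was at least 4.01-fold lower. Ccl25 was 1.08 ± 0.23 (SE) higher on the log2 scale (adjusted p = 0.00472, limma). With the empty vector in Hdh109/109 cells Ppbp fell by 1.83 (adjusted p = 0.0107), against the direction of the members that rose, and Ccl4, an inflammatory CC ligand, rose by 1.27 ± 0.2 and was detected on 1 of 4 arrays.

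Few receptors for these ligands were measurable. Of 23 receptor genes 21 had a probe, 16 of them were detected on 0 of 12 arrays and 3 were tested. The undetected ones included Cxcr3, Ccr2, Cxcr2, Cx3cr1 and Ccr6, the receptors for Cxcl10, Ccl2, Cxcl1, Cx3cl1 and Ccl20. Cxcr4 was detected on all 12 arrays at group means of 6.32 to 7.22. Ccr1, a receptor of CC ligands, was detected on 6 of 12 arrays at group means of 5.3 to 6.3. Cxcr6, the receptor for Cxcl16, was at least 1.36-fold lower in untransfected Hdh109/109 cells (adjusted p = 0.00595, limma), at group means of 4.88 against 6.42. In untransfected cells Cxcr6 was detected on both Hdh7/7 arrays and on 0 of 2 Hdh109/109 arrays.

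Of the interferon signalling genes 15 of 19 were tested. With the empty vector in Hdh109/109 cells 6 rose and 0 fell (median 0.55, against 0.01 for all genes), where 2.43% of all genes rose. Stat2 and Irf9, subunits of the factor that binds the ISRE, rose at least 4.22-fold and by 2.81 ± 0.23 (SE) on the log2 scale. Irf7, an amplifier of type I interferon transcription, rose at least 4.73-fold, and Irf1, an interferon-induced activator, by 1.81 ± 0.19 (adjusted p = 0.00047, limma). In Hdh7/7 cells with the empty vector 0 rose and 1, Irf9, fell by 0.96 (adjusted p = 0.0199, limma). Irf9 was detected on 1 of 2 Hdh7/7 arrays with the empty vector, so its response in that line rests in part on an undetected signal. The difference between the lines in this response was 3.77 ± 0.32 for Irf9, and 7 of 15 genes passed that test with a higher response in Hdh109/109, where 8.95% of all genes did. They include Irf7 and Stat2, detected on 1 and 0 of the 4 Hdh7/7 arrays compared, for which no size is given. In untransfected cells, where Cxcl10 and Ccl5 were already higher in Hdh109/109, 0 of 15 interferon genes were higher and 5 lower, where 20.9% of all genes were called lower, namely Socs3 (-0.67 ± 0.13), Ifngr2 (-0.62 ± 0.13), Irf2 (-0.58 ± 0.14), Ifngr1 (-0.48 ± 0.12) and Irf3 (-0.44 ± 0.12). The probe for Ifnb1, interferon beta, was undetected on all 12 arrays.

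Of the NF-κB and inflammatory cytokine genes 17 of 25 were tested. In untransfected cells 6 were called higher in Hdh109/109 and 2 lower (median 0.31, against -0.01 for all genes), where 18.1% and 20.9% of all genes were called. The adaptor Myd88 was higher by 1.41 ± 0.13 (SE), the ligase Traf6 by 1.19 ± 0.22 and the NF-κB subunit Rela by 0.93 ± 0.15, while the adaptor Traf2 was lower (-1.04 ± 0.3). The other gene called lower, the cytokine Il6, was undetected on all 4 untransfected arrays and has no measured direction there. With the empty vector in Hdh109/109 cells 1 of 17, Il6, rose, at least 1.34-fold (adjusted p = 0.00849, limma), and 0 fell. Of all genes 2.43% rose in that comparison. Between the lines 12 of 17 were higher in Hdh109/109 with the empty vector and 13 with DNRest, and 0 were lower. Of all genes 23.9% and 19.9% were higher in these states. The response to the empty vector was higher in Hdh109/109 for 4 of 17 and lower for 0, where 8.95% of all genes were higher. Tnf and Il1b were undetected on all 12 arrays. Of 6 proteases tested that shed or trim chemokines, 3 were higher in untransfected Hdh109/109 cells and 0 lower, where 18.1% and 20.9% of all genes were called. With DNRest 4 were higher in Hdh109/109 cells and 1 lower, where 19.9% and 19.3% of all genes were called. In untransfected cells Adam10, which sheds Cx3cl1 and Cxcl16, was higher in Hdh109/109 by 0.69 ± 0.15 and the gelatinase Mmp2 by 2.16 ± 0.17. The cathepsin Ctsk was at least 3.04-fold higher there. In Hdh7/7 cells with the empty vector 3 of these 6 fell, against 11.3% of all genes, Mmp2 by 1.5, Mmp14 by 0.82 and Adam10 by 0.66. Of the regulators of cytokine mRNA decay 2 of 6 were tested, and Zfp36l1 was 1 ± 0.16 higher in untransfected Hdh109/109 cells and fell by 1.33 with the empty vector in Hdh7/7 cells.

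**Figure D4:**
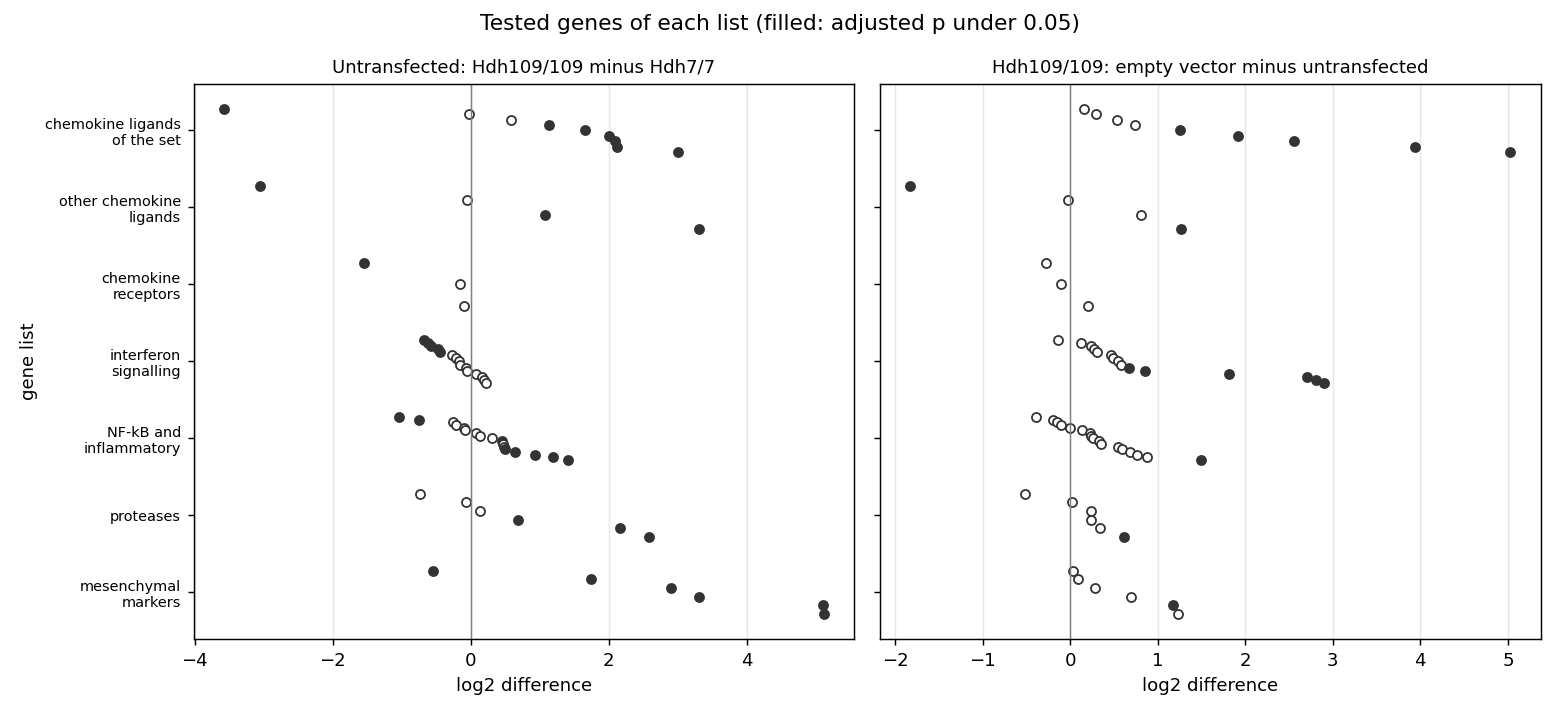
Log2 differences of the tested genes of 7 lists, for Hdh109/109 minus Hdh7/7 in untransfected cells and for empty vector minus untransfected in Hdh109/109 cells; filled points passed an adjusted p of 0.05. Of 15 interferon signalling genes 0 were higher and 5 lower between the lines, where 18.1% and 20.9% of all genes were called. With the empty vector 6 rose, where 2.43% of all genes did.

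Markers of other cells were read beside these results. All 8 microglia and macrophage markers with a probe, all 5 lymphocyte markers and all 7 endothelial markers were undetected on all 12 arrays, among them Ptprc (the leukocyte antigen CD45), Itgam, Cd3e and Pecam1. Their summed linear levels were 220 to 242, 132 to 154 and 195 to 228 over all groups. Neuronal and striatal markers were undetected on every array for 9 of 13 genes; Penk was at least 2.89-fold higher and Foxp1 0.94 ± 0.13 (SE) higher in untransfected Hdh109/109 cells, and Map2 was lower, at -1.23 ± 0.2. Of 6 astrocyte markers with a probe 4, Gfap among them, were undetected on all 12 arrays. The other 2 were higher in untransfected Hdh109/109 cells, Glul by 0.92 ± 0.28 and Slc1a3 by 0.75 ± 0.25, and Slc1a3 fell by 1.74 with the empty vector in Hdh7/7 cells. Mesenchymal markers differed between the lines and, in Hdh7/7 cells, with the empty vector. Of 6 tested, 5 were higher and 1, Pdgfrb, lower in untransfected Hdh109/109 cells, where 18.1% and 20.9% of all genes were called. Col1a2 was at least 15.1-fold and Pdgfra at least 29.7-fold higher. The summed linear level of the 8 mesenchymal markers was 1221 to 1264 in untransfected Hdh7/7 cells and 6719 to 7059 in untransfected Hdh109/109 cells. With the empty vector the sum was 623 to 660 in Hdh7/7 and 11495 to 15029 in Hdh109/109 cells. Bright probes weigh most in it, such as Col3a1, with Hdh109/109 means of 11.4 untransfected and 12.63 with the empty vector. In Hdh109/109 cells 1 of 6, Pdgfra, was called higher and 0 lower, where 2.43% of all genes were called higher. In Hdh7/7 cells 4 of 6 were called lower, against 11.3% of all genes. Of those 4, Dcn was undetected on all 4 arrays compared and has no measured direction there. The part of these markers in the chemokine differences was not tested.

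Across the 12 arrays the members that rose in Hdh109/109 cells followed one another. The Pearson correlation of log2 levels was 0.99 between Cxcl10 and Ccl5, 0.98 between Cxcl10 and Ccl2 and 0.98 between Ccl2 and Ccl7, and Cx3cl1 correlated with Cxcl12 at -0.92. These values share the split between the lines and the transfections, and describe 12 arrays in 6 groups. Among 8325 other genes the closest to Cxcl10 were Errfi1 (r = 0.99), Irgm2 (0.987), an interferon-inducible GTPase, and Bst2 (0.986), an interferon-induced antiviral membrane protein. Closest to Ccl5 were C1qtnf3 (0.986) and the immunoproteasome subunits Psmb10 (0.98) and Psmb8 (0.979), and closest to Ccl2 were Oas1g and C1qtnf3 (both 0.996) and Shisa5 (0.989). Ccl7 was most like Tspyl5 (0.989), Igfbp2 and Gsdmd (both 0.986), and Cxcl16 most like Unc93b1 (0.989), Apoe (0.98) and Shisa5 (0.976). Cxcl1 was least closely matched, with Sphk1 (0.946), Bscl2 and Nudt14 (both 0.924). Cxcl5 was matched by Snapc1 (0.987), Psme3ip1 (0.983) and Tbrg1 (0.981), Cxcl12 by the protease Ctsk (0.992), Bves (0.991) and Igf2bp3 (0.99), and Cx3cl1 by Prelp (0.996), Creld1 (0.995) and Gpd1 (0.994).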

How the data were processed

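RNA of 12 arrays was analysed from the deposited unnormalized table, which holds a linear intensity per probe with a detection p-value, per the file headers. Per the submitters' processing notes, limma was used, with no version or step stated. For the scanner software and its background correction nothing is given in the sources used here. The deposited log2 series matrix was not used, because its rows did not match their identifiers (rank correlation 0.0175 to 0.0341 with the intensities). Its column medians were 3.061 to 3.073, with scale, centring and direction unstated.

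Signals were background-corrected from the detection p-values (offset 16) and quantile normalized (neqc, limma 3.58.1, R 4.3.3). All 12 arrays entered 1 model with 6 group means (6 residual degrees of freedom, eBayes, two-sided tests), with Benjamini-Hochberg adjustment over 15224 tested probes and calls at an adjusted p under 0.05. Each gene was represented by its brightest tested probe. Of 44505 probes 28471 had 1 gene symbol, 10 several and 16024 none here. Members and gene lists were chosen with earlier results of these data known. Named genes were all member probes, Htt, Rest, up to 4 called genes per list and comparison with the largest difference, and 3 genes most like each member. The number of arrays limits the precision. Alternatives covered the probe filter, scaling, background correction, a replicate block, the arrays in the fit, and leaving out each array. Motifs were searched with Python 3.11.15.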

Additional observations from a re-analysis of the deposited data

Results flagged for a closer look

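The response to the empty vector (empty vector minus untransfected, log2) differed between the lines by the test of the difference itself for 6 of the 9 members tested (limma, adjusted p under 0.05). All 6 had the more positive response in Hdh109/109 cells, where 8.95% of all genes were called in that direction. Hdh109/109 minus Hdh7/7, the difference in response was 4.73 for Cxcl10, 3.03 for Ccl5, 2.59 for Ccl2, 3.07 for Ccl7, 1.7 for Cx3cl1 and 1.66 for Cxcl16. Of the Hdh7/7 arrays compared, Ccl2 and Cxcl16 were undetected on all, and Cxcl10 and Ccl5 on all but 1. The sizes for these genes rest in part on undetected signals. For Cxcl10, Ccl5, Ccl2, Ccl7 and Cxcl16 the response in Hdh109/109 cells was a rise that passed on its own. The calls of that rise for Ccl7 and Cxcl16 were less stable, and were lost with no filter on dim probes. For Cx3cl1 the response that passed was the fall of 1.16 in Hdh7/7 cells. Without the pair of arrays with high background, Cxcl10, Ccl5, Ccl2, Ccl7 and Cx3cl1 were called and Cxcl16 was not.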

How the results depend on the processing

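No called member value changed sign under any alternative, while some uncalled values did. Of the members' values under the alternatives 959 kept their side of the threshold, 16 gained a call and 21 lost one. The members' values include uncalled ones. For the other named list genes, chosen because they were called, 402 values kept the call and 100 lost it. With no filter on dim probes, 1 member was called for the empty vector in Hdh7/7 cells and 3 in Hdh109/109 cells. Requiring detection on all 12 arrays left Cxcl1, Cxcl12 and Cx3cl1; of these 2, 3 and 3 were called between the lines (untransfected, empty vector, DNRest), 1 for the empty vector in each line and 1 for the difference in that response, and DNRest called 2 genes in Hdh7/7 and 6 in Hdh109/109 cells. Median scaling called 1844 and 1958 genes between untransfected and DNRest cells of the lines, 44 for DNRest in Hdh109/109 cells, and 4 members for the empty vector in Hdh7/7 cells. It moved the median of all genes, for example for the difference in response to the empty vector, from 0.08 to 0.67. Without background correction 478 genes were called for the empty vector in Hdh109/109 cells. With the compared groups alone, 2011 genes were called between the lines with the empty vector, 0 genes and 0 members for the empty vector in Hdh7/7 and 151 genes in Hdh109/109, 0 and 9 genes for DNRest, and 447 for the difference in response to the empty vector. The fit without both high-background arrays, chosen after seeing the data, called 691 genes for the empty vector in Hdh7/7 cells and 483 for the difference in response. The causes of these shifts were not tested, apart from the fewer genes or arrays used.

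Leaving out 1 array at a time gave 7 members and 2305 to 2376 genes between the untransfected lines, 8 to 9 and 3010 to 3813 with the empty vector, and 9 and 2132 to 2223 with DNRest. For the empty vector it gave 1 to 3 members and 482 to 2124 genes in Hdh7/7, 3 to 4 and 118 to 611 in Hdh109/109, and 5 to 7 and 455 to 1922 for the difference. For DNRest it gave 0 to 2 members and 5 to 515 genes in Hdh7/7, 0 and 8 to 138 in Hdh109/109, and 0 to 2 and 0 to 359 for the difference. For the empty vector and DNRest comparisons the highest gene counts came without replicate 1 of an empty vector group. A lone array was assumed to vary like the other groups.

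Replicate numbers did not pair the arrays, since deviations of same-numbered arrays correlated at -0.44 to 0.36 over 15 pairs of groups, with 2 above 0.1. The fit with the replicate block gave the same member counts in all comparisons (7, 9, 9, 2, 5, 0, 0, 6 and 0) and moved no count over 1.5 times. Slide as a block was not run, since the files give no slide. With 2 arrays per group, and Hdh7/7 signals of Cxcl10, Ccl5, Ccl2, Cxcl5 and Cxcl16 near background, folds for those genes are limited by the background.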
